A study of Mus musculus with 4 samples.

Results

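Alpha-beta T cells that carry CD8 alpha without CD8 beta were picked out of single-cell counts from the epithelial layer of the mouse small intestine, 384 cells of 44277 barcodes. A cell was taken when its barcode held at least 500 unique molecular identifiers (UMIs, 1 per captured transcript molecule), at least 250 genes and at most 25% mitochondrial UMIs, at least 2 UMIs of the CD3 genes Cd3d, Cd3e and Cd3g, at least 1 UMI of Trac and of Cd8a, and none of Cd8b1, Trdc or Cd4. Fabp1 had to stay under 1% and Jchain under 0.2% of its UMIs, limits aimed at droplets shared with enterocytes or plasma cells. The cells were chosen by these measured counts, so their levels of the genes in the rule are a description.

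Male C57BL/6J mice received a high-fat diet with the nitric oxide synthase inhibitor l-NAME from 8 weeks of age for 7 weeks and were 15 weeks old when killed. The 2 control samples and the 2 samples with indolepropionic acid (IPA, an indole derivative of bacterial origin) at 562.5 mg per kg of diet shared the diet, the inhibitor, strain and sex. Each sample joined 2 mice, and jejunum and ileum without Peyer's patches gave the epithelial layer, from which DAPI-negative live cells were sorted with no selection for lymphocytes. The matrix separates 4 libraries by a number on the barcode, and no source used here says which diet a number stands for. Each library is therefore described by itself, with no comparison of diets and no p-value.

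The epithelium of the small intestine holds T cells between its enterocytes. Some are conventional CD8 alpha-beta cells, which enter the epithelium after meeting antigen, and their CD8 alpha chain pairs with CD8 beta into a co-receptor for the T cell receptor. Others, called natural intraepithelial lymphocytes, express CD8 alpha as a homodimer, carry either alpha-beta or gamma-delta receptors, and are known for receptors and signalling adaptors shared with natural killer cells and for low levels of CD5, CD2 and Thy-1.

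The 384 cells fell very unevenly over the libraries, with 63, 1, 318 and 2 cells in libraries 1 to 4. All T cells did so too, with 317, 4, 1246 and 5. In library 1 the CD8 alpha only cells made up 19.9% of T cells (63 of 317, exact 95% interval 15.6% to 24.7%) and in library 3 they made up 25.5% (318 of 1246, 23.1% to 28.0%). Of all barcodes that passed the quality limits they were 1.02% (0.785% to 1.30%) and 5.04% (4.51% to 5.61%). All intervals cover counting error only. No barcode sequence of the 384 cells marked a T cell in another library, and 5 sequences occurred in another library at all.

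Depth was alike in both libraries that held enough cells. The median was 3761 UMIs and 1689 genes per cell in library 1 and 3863 UMIs and 1764 genes in library 3, against medians of 27622 and 22601 UMIs over all quality barcodes. Class totals were 284363 and 1513454 UMIs, so levels in library 3 have the narrower intervals. In the text below a level is given as CPM, the UMIs of a gene scaled to the same total of UMIs in each class, in library 1 and then library 3, and it measures molecules at 3′ ends, not transcripts per length. 1 cell of library 1 and 3 cells of library 3 exceeded 20000 UMIs. One of them, with 42841 UMIs in library 3, held 58.1% of its UMIs in genes of secretory epithelium, led by the Paneth cell genes Defa24 and Lyz1. Counts of genes between classes are given with and without these barcodes.

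The absence of Cd8b1 was looked at against depth, since a count of 0 is easier to reach in a shallow cell. Cd8a and Cd8b1 lie side by side on the plus strand of chromosome 6 in GRCm38, Cd8a at chr6:71373427-71379173 and Cd8b1 at chr6:71322788-71337494, 35932 bases apart. Of T cells with Trac and Cd8a and without Trdc or Cd4, 73.3% lacked a Cd8b1 UMI in library 1 (63 of 86, 62.6% to 82.2%) and 88.3% in library 3 (318 of 360, 84.6% to 91.5%). In library 3 the share was 88.9% of 18 cells with 1000 to 2000 UMIs, 88.6% of 176 with 2000 to 4000, 87.4% of 143 with 4000 to 8000 and 91.3% of 23 above 8000. In library 1 it was 100% of 2, 72.3% of 47, 73.3% of 30 and 66.7% of 6 cells in the same ranges, with 1 further cell under 1000 UMIs that lacked Cd8b1. In library 1 the few cells under 2000 UMIs all lacked it. The cells just outside the limit, with exactly 1 Cd8b1 UMI, numbered 7 in library 1 and 8 in library 3, and cells with Cd8b1 held a median of 3 UMIs in both.

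The Trdc limit removed far more cells. Trdc, the constant segment of the delta chain, lies at chr14:54142851-54148868 inside the locus of the alpha chain, whose constant segment Trac lies at chr14:54220521-54224206. Among cells that met every other limit, 103 of 166 in library 1 and 388 of 706 in library 3 held Trdc. Cells just outside, with 1 Trdc UMI, numbered 6 and 29, and those with 5 or more numbered 58 and 221. Trac was at exactly 1 UMI in 10 and 59 of the chosen cells and Cd8a in 6 and 23. The 14 and 49 cells that failed by Trac alone had no Trac UMI, and 10 and 61 failed by Cd8a alone.

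**Figure D1:**
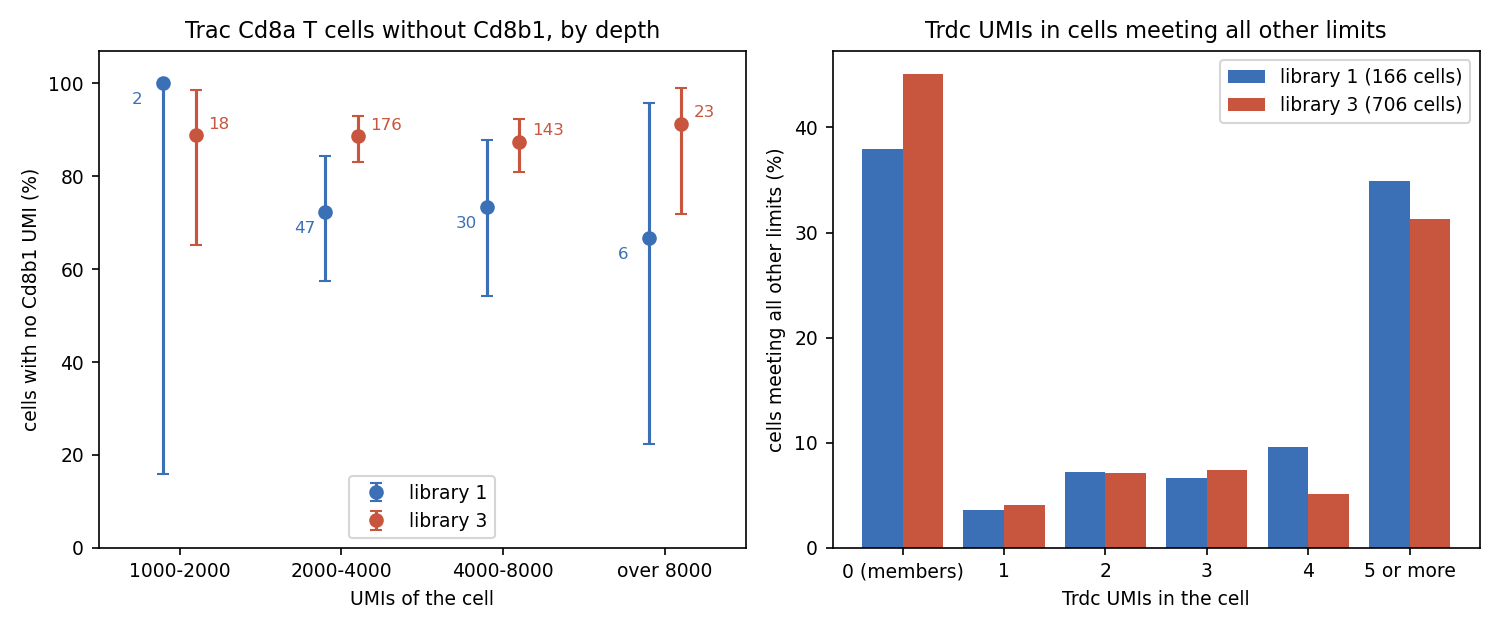
Left, share of T cells with Trac and Cd8a and without Trdc or Cd4 that had no Cd8b1 UMI, by UMIs of the cell, with exact 95% binomial intervals and the number of cells beside each point; 1 cell of library 1 under 1000 UMIs is not drawn. Right, Trdc UMIs in cells that met all other limits, in percent of 166 cells of library 1 and 706 cells of library 3. The share without Cd8b1 lies between 87.4% and 91.3% in library 3 and between 66.7% and 100% in library 1, and most cells with Trdc hold 2 or more UMIs of it.

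Of the T cell receptor genes that the rule did not use, most CD8 alpha only cells held transcripts of the beta chain and most also held transcripts of the gamma chain. Trbc1 or Trbc2, the constant segments of the beta chain, had a UMI in 63 of 63 and 312 of 318 cells and summed to 2571 and 2387 CPM. Conventional CD8 alpha-beta cells of the same libraries (the same limits, but with Cd8b1) held 2484 and 2637 CPM. Gamma-delta cells (Trdc without Trac) held 1449 and 1473 CPM and had a beta-chain UMI in 93.0% and 93.9% of cells, so a beta-chain transcript alone did not separate the classes. In enterocytes 1.16% and 6.55% of cells had one, at median depths of 32272 and 32824 UMIs.

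A UMI of a constant segment of the gamma chain (Tcrg-C1, Tcrg-C2 or Tcrg-C4) was found in 56 of 63 and 305 of 318 cells, at 1006 and 1078 CPM, against 96.5% and 97.8% of gamma-delta cells, at 1921 and 1457 CPM. A variable segment of the gamma chain was found in 46.0% and 45.3% of CD8 alpha only cells and in 59.6% and 51.1% of gamma-delta cells. Conventional CD8 alpha-beta cells had a constant segment UMI in 20 of 23 and 35 of 42 cells, at 960 and 909 CPM. A variable segment was found in 43.5% and 57.1% of them. Gamma-chain transcripts were therefore present in each of these classes, with the constant segments at a lower level in both CD8 classes than in gamma-delta cells. Tcrg-C1 alone stood at 183 and 218 CPM in the CD8 alpha only cells. It had a UMI in 26 of 63 and 136 of 318 cells and was at 782 and 600 CPM in gamma-delta cells. The constant segments of the gamma chain are near copies of each other, so how reads were divided among them is uncertain. A variable segment of the delta chain was found in 1 of 63 and 3 of 318 cells, against 12.3% and 13.1% of gamma-delta cells. A variable segment of the alpha chain was found in 5 of 63 and 33 of 318 cells, against 4 of 57 and 15 of 229 gamma-delta cells, and one of the beta chain in 2 and 20 cells, against 0 and 8. No single segment dominated the few that were read, and the most frequent, Trav3-3 and Trbv2, were each found in 4 cells of library 3.

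Both fixed markers that the rule left free were present. Gzma, a granule protease of cytotoxic cells, stood at 22622 CPM (22073 to 23182) in library 1 and 19409 CPM (19187 to 19632) in library 3. It had a UMI in 68.3% and 68.6% of the cells. The share was 47.8% and 45.2% in CD8 alpha-beta cells and 71.9% and 52.0% in gamma-delta cells. CD4 T cells had a Gzma UMI in 2 of 11 and 21 of 41. Enterocytes, which do not make it, had a Gzma UMI in 9.73% and 29.5% of cells, at 3.46 and 12.4 CPM, and B cells (median depths of 3365.5 and 2833 UMIs) in 1 of 20 and 14 of 98. After every cell was thinned to 1500 UMIs, with 2 cells left out in each library, 67.2% and 67.1% of the CD8 alpha only cells had one, against 0.9% and 2% of enterocytes. Cd160, a receptor for HVEM found on intraepithelial lymphocytes and natural killer cells, stood at 784 CPM (685 to 894) and 578 CPM (540 to 618) and had a UMI in 47 of 63 and 257 of 318 cells. Cd160 was higher than in the other CD8 class in library 1 and not in library 3. It was at 475 and 695 CPM in CD8 alpha-beta cells and at 473 and 611 CPM in gamma-delta cells.

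The members of libraries 2 and 4 can be listed whole. The cell of library 2 had 3482 UMIs with 2 of Trac, 10 of Cd8a, 2 of Cd160, 0 of Gzma, 9 of Fcer1g and 12 of Tyrobp. In library 4 a cell of 3365 UMIs had 5 of Trac, 8 of Cd8a, 5 of Cd160, 0 of Gzma, 11 of Fcer1g and 4 of Tyrobp. The other, of 1747 UMIs, had 2 of Trac, 4 of Cd8a, 0 of Cd160, 30 of Gzma, 4 of Fcer1g and 1 of Tyrobp. All 3 held both adaptors, and Gzma and Cd160 together were found in none of them.

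Against conventional CD8 alpha-beta cells, the CD8 alpha only cells had higher levels of Tyrobp, Fcer1g, Klrd1 and Il2rb and lower levels of Il7r, Thy1, Cd6 and Lat. Of 3033 genes with a mean of at least 50 CPM, 46 were at least 2-fold higher in both libraries (1.52%) and 25 were at least 2-fold lower (0.824%), on a log2 ratio with 10 CPM added to each level. In 41 and 23 of these the counting interval of the ratio also excluded 1 in both libraries. The CD8 alpha-beta class holds 23 and 42 cells, with medians of 3364 and 3943.5 UMIs, and its size limits these ratios. A gene that reaches the minimum through 1 class alone can hardly be called except as higher there. Of the 2600 genes at 50 CPM or more in both classes, 21 were higher and 8 lower, so 25 of the 46 and 17 of the 25 reached the minimum through 1 class. Of 28 natural intraepithelial receptor and adaptor genes, 9 reached it in both classes and 7 of these were higher and 0 lower. Another 3 reached it through the CD8 alpha only cells, of which 2 were higher. Of 19 conventional surface and signalling genes, 5 reached it in both classes, and Lat was lower and 0 were higher. The other 6 that entered reached it through the CD8 alpha-beta cells alone and were all lower, a direction the minimum favours, so their levels are given below as values.

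Among the signalling adaptors, Tyrobp, which encodes DAP12 and couples activating natural killer receptors to tyrosine kinases, stood at 1730 CPM (1581 to 1890) and 1399 CPM (1340 to 1460), against 39.6 CPM (10.8 to 101) and 80.2 CPM (44.9 to 132) in CD8 alpha-beta cells. Fcer1g, which encodes the Fc receptor gamma chain and can replace CD3 zeta in the receptor complex, stood at 2356 and 2046 CPM against 336 and 658 CPM. Lat2, an adaptor related to LAT, stood at 211 and 176 CPM against 39.6 and 64.2. The intervals of the classes did not overlap for these 3 adaptors in either library. In enterocytes Tyrobp had a UMI in 0.967% and 5.04% of cells and Fcer1g in 2.18% and 7.11%. B cells had Tyrobp in 7 of 20 and 9 of 98.

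Several receptors of natural killer cells were higher too. Klrd1, which encodes CD94, stood at 1122 and 1067 CPM against 376 and 369 CPM in CD8 alpha-beta cells. Klre1, a lectin-like receptor that pairs with others of its family, stood at 73.8 and 165 CPM, against 0 UMIs (an upper limit of 29.7 CPM) and 16.0 CPM from 3 UMIs of 1 cell. Klrb1a stood at 123 and 161 CPM against 0 (limit 29.7 CPM) and 42.8 CPM. Cd244a, the receptor 2B4, stood at 369 and 279 CPM against 148 and 112 CPM. Each of these 4 receptors was higher in both libraries. Klre1 and Klrb1a reached the minimum through the CD8 alpha only cells alone, a direction the minimum favours. The Ly49 genes were read in few cells. Klra6 had a UMI in 13 of 63 and 41 of 318 CD8 alpha only cells, against 0 of 23 and 1 of 42 CD8 alpha-beta cells and 1 of 57 and 2 of 229 gamma-delta cells. Ly49 genes are near-identical in sequence, and which copy a read came from is uncertain.

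Gm156 had no UMI in the 23 and 42 CD8 alpha-beta cells. In the CD8 alpha only cells it stood at 165 CPM in 8 of 63 cells and 275 CPM in 77 of 318 cells, and in gamma-delta cells at 99.6 and 123 CPM. The limit that a count of 0 allows in the CD8 alpha-beta cells was 29.7 and 16.0 CPM. So Gm156 came from a minority of cells, with many UMIs in each. It too reached the minimum through the CD8 alpha only cells alone.

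Other genes higher in both libraries included Il2rb, the beta chain of the IL-2 and IL-15 receptors, at 471 and 536 CPM against 89.1 and 171. Ikzf2, the transcription factor Helios, stood at 816 and 733 CPM against 247 and 251. Txk, a TEC family kinase, stood at 538 and 374 CPM against 228 and 150. Also higher were Spry2, an inhibitor of receptor kinase signalling (105 and 130 against 19.8 and 10.7 CPM), Itgad, integrin alpha D (66.8 and 108 against 9.90 and 21.4), and Bcl2l11, which encodes the death factor BIM (137 and 113 against 39.6 and 21.4). Spry2, Itgad and Bcl2l11 reached the minimum through the CD8 alpha only cells alone, so the minimum favours their direction. Of the list of inhibitory receptors, 8 genes reached the minimum in both classes, of which Cd244a and Cd200r1 were higher and 0 lower. Lag3, which reached it through the CD8 alpha only cells alone, was higher as well. It had 18 UMIs in 14 cells of library 1, and the counting interval of its ratio did not exclude 1 in both libraries. Glp1r, the receptor for glucagon-like peptide 1, was among the 46, at 169 and 133 CPM against 59.4 and 42.8 CPM.

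Genes lower in CD8 alpha only cells were led by Il7r, the IL-7 receptor alpha chain that memory T cells use for survival. It stood at 7.03 CPM (0.852 to 25.4) and 13.9 CPM (8.59 to 21.2) against 267 CPM (176 to 389) and 283 CPM (212 to 371). Thy1 stood at 21.1 and 39.0 CPM against 287 and 241, and Cd6, a co-receptor of conventional T cells, at 17.6 and 45.6 against 168 and 209. Cd5, which dampens receptor signalling, was at 17.6 and 21.1 against 119 and 64.2 CPM, and Cd2, an adhesion receptor, at 24.6 and 24.4 against 119 and 90.9 CPM. Within the receptor's own pathway Lat was lower at 102 and 117 against 366 and 407 CPM, and Themis at 35.2 and 18.5 against 139 and 193 CPM. Lck and Zap70, the kinases that start receptor signalling, did not pass: Lck was at 355 and 398 CPM against 406 and 519, and Zap70 at 225 and 237 against 178 and 177. Ms4a4b, Rora, Bcl11b and the homing genes Ccr9 and Itga4 were lower as well. Il7r, Thy1, Cd6, Cd5, Cd2, Themis, Ms4a4b, Rora and Itga4 reached the minimum through the CD8 alpha-beta cells alone, a direction the minimum favours. For Itga4 the counting interval of the ratio did not exclude 1 in both libraries.

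**Figure D2:**
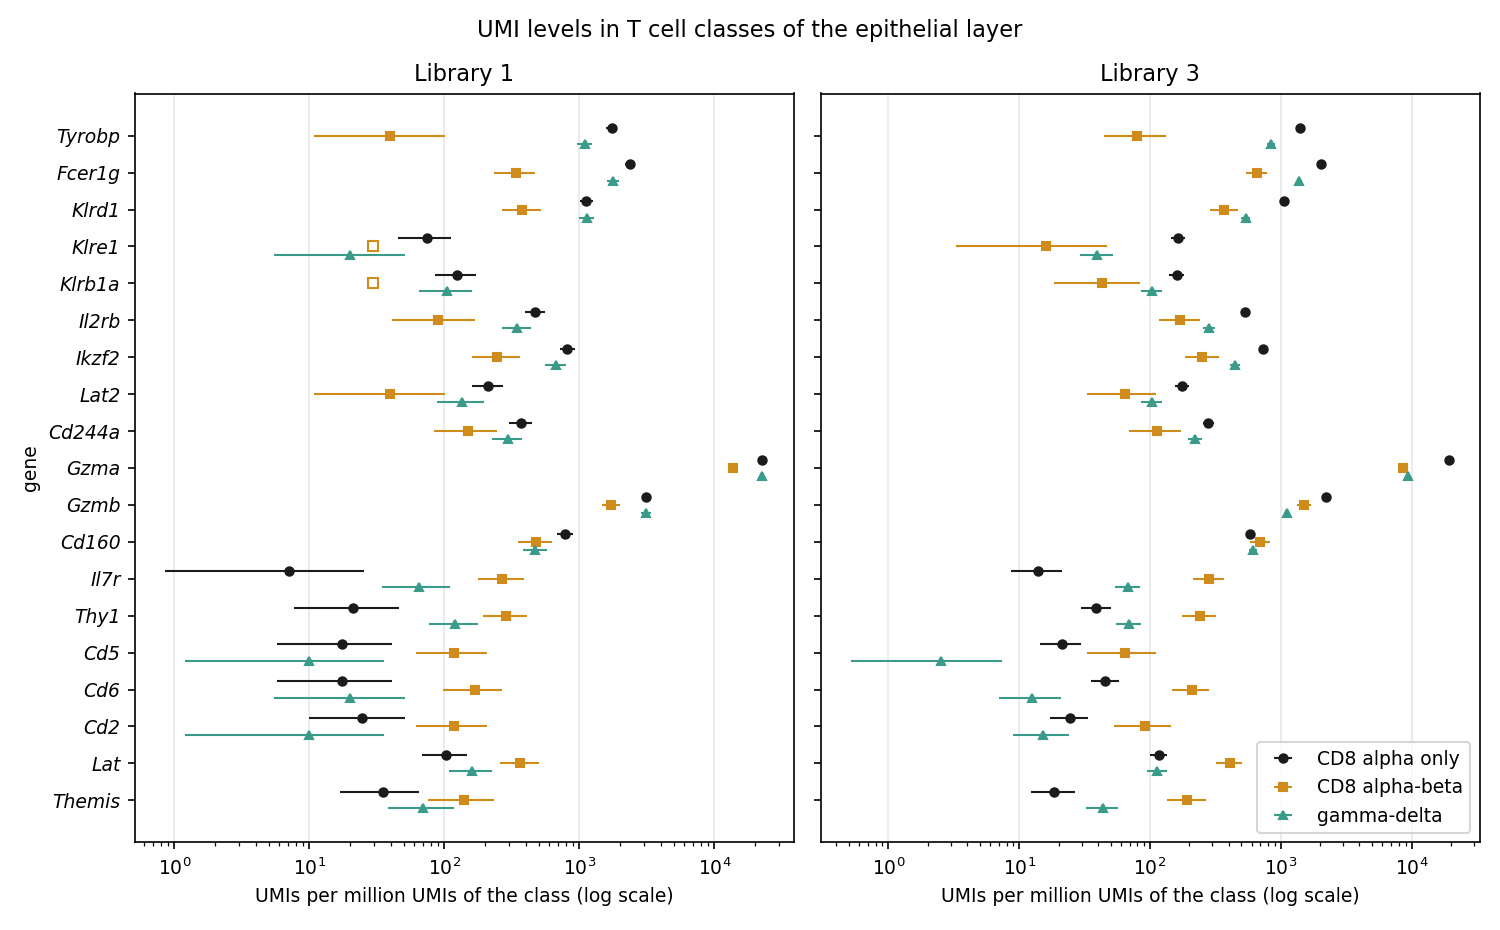
Levels of 19 genes in CPM (log scale) in CD8 alpha only, CD8 alpha-beta and gamma-delta cells of library 1 (left) and library 3 (right), with exact 95% Poisson intervals; open symbols mark the limit of a count of 0. Tyrobp is at 1730 and 1399 CPM in CD8 alpha only cells against 39.6 and 80.2 CPM in CD8 alpha-beta cells, and Il7r at 7.03 and 13.9 CPM against 267 and 283 CPM.

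Many properties of epithelial T cells did not separate the 2 CD8 classes. Of the cytotoxic granule list, 9 of 14 genes were above the minimum and only Tnfsf10, the death ligand TRAIL, was higher in both libraries. Gzmb stood at 3095 and 2231 CPM against 1712 and 1514, and Nkg7 at 1913 and 1908 against 1346 and 1535. Ccl5, the most abundant chemokine, stood at 23055 and 19079 CPM against 15576 and 17416. The integrins that hold cells in the epithelium were near equal, with Itgae at 549 and 562 CPM against 564 and 513. No gene passed among 17 of the activation list, 14 of antigen presentation, 10 of metabolism, 6 of type I interferon or 5 of the cell cycle list that were above the minimum. Ahr, the receptor for indoles and other aryl compounds and the single gene of its list above the minimum, was at 49.2 and 95.1 CPM against 79.2 and 123 CPM.

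RNA of epithelial origin moved with part of this comparison. The enterocyte markers summed to 21568 and 16814 CPM in CD8 alpha only cells against 20900 and 15747 CPM in CD8 alpha-beta cells. The secretory markers summed to 15473 and 18490 CPM against 1672 and 1712 CPM, but their median share per cell was 0.127% and 0.183% against 0.154% and 0.195%. Of the 46 genes higher in CD8 alpha only cells, 10 were at a higher level in enterocytes than in the cells themselves, among them Misp and Lgals2. Without barcodes above 20000 UMIs 45 genes were higher, 37 of them among the 46, and 22 were lower, all 22 among the 25. Lost were mostly epithelial genes, Spink4, Misp, Lgals2, Lypd8, Tspan8 and Defa29 among them, and every called gene named above apart from Misp and Lgals2 was kept. Of the 8 natural killer cell markers, Ncr1, Eomes, Klra4 and Klra8 had 0 UMIs, and the others, which include Tyrobp, Fcer1g and Gzma, brought the list to 26737 and 22893 CPM against 14161 and 9339 CPM in CD8 alpha-beta cells. The plasma cell list summed to 394 and 386 CPM against 376 and 262 CPM. Among markers of other cells, 0 UMIs were found of Foxp3, Lyz2, Csf1r, C1qa, Flt3, Xcr1, Mzb1, Derl3, Col1a1 and Dcn. The B cell list summed to 45.7 and 52.2 CPM, and the myeloid list to 355 and 252 CPM from 3 and 4 of its 12 genes. The part of free epithelial RNA in the other differences was not tested.

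**Figure D3:**
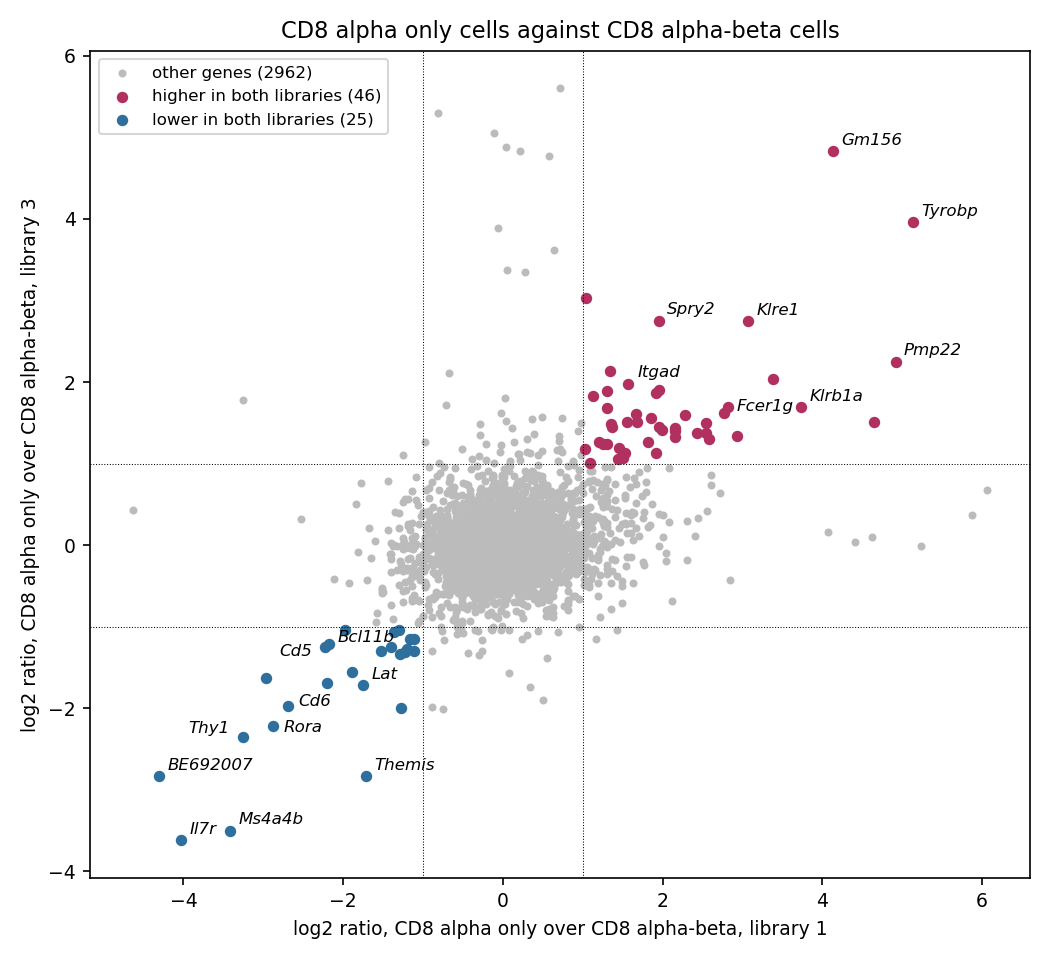
Each point is 1 of 3033 genes, with the log2 ratio of CD8 alpha only over CD8 alpha-beta cells in library 1 (x axis) and library 3 (y axis), 10 CPM added to each level; dotted lines mark 2-fold. The 46 genes higher in both libraries include Tyrobp, Fcer1g and Klre1, and the 25 lower in both include Il7r, Ms4a4b and Thy1. Klre1, Il7r, Ms4a4b and Thy1 reached the minimum of 50 CPM through 1 class alone, a direction the minimum favours.

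Gamma-delta cells were much closer. Only 3 of 3073 genes were at least 2-fold higher in CD8 alpha only cells in both libraries (0.0976%) and 4 were lower (0.13%). Of the 2774 genes at the minimum in both classes 1 was higher, Ada, and 1 lower, Tcrg-C1. Higher among all were Klre1 at 73.8 and 165 CPM against 19.9 and 39.4, Ada, adenosine deaminase, at 510 and 379 CPM against 79.6 and 165, and Spry2 at 105 and 130 CPM against 24.9 and 56.1. Lower were Tcrg-C1, Ms4a4b, Fabp6 and Defa21. Of these 7 genes, Klre1, Ada and Tcrg-C1 kept their call without barcodes above 20000 UMIs. One gamma-delta barcode of library 3 held 127996 UMIs, 10.7% of its class, with 46.4% in secretory genes. Others held 104357 and 41550 UMIs, 8.74% and 3.48% of the class. The gamma-delta levels given for library 3 include these barcodes. Gamma-delta cells were also taken whatever their Trac count, 166 and 647 cells, of which 57 and 229 lacked Trac. Most of this wider class thus held Trac as well as Trdc. Against it no gene was higher, and without the deep barcodes Tcrg-C1 alone was lower. Ada is also an enterocyte gene, at a mean of 171 CPM in enterocytes against 445 CPM in CD8 alpha only cells. It had a UMI in 21 of 63 and 146 of 318 CD8 alpha only cells. A single cell held 54 of its 145 UMIs in library 1 and 78 of 574 in library 3. The enterocyte list, with 15 genes used, had a median log2 ratio over gamma-delta cells of 1.47 and -0.286. The part of epithelial RNA in the level of Ada was not tested.

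Of the natural receptor and adaptor genes, 10 reached the minimum in both classes and 0 of them passed against gamma-delta cells. Klre1 passed, having reached the minimum through the CD8 alpha only cells. Tyrobp was at 1095 and 843 CPM in gamma-delta cells, Fcer1g at 1782 and 1391, and Il2rb at 343 and 284. All 3 were lower there than in CD8 alpha only cells in both libraries, by less than 2-fold. These gamma-delta cells held no Trac UMI and were not chosen by Cd8a, which 13 of 57 and 80 of 229 lacked. With gamma-delta cells taken whatever their Trac count, the gap was smaller. The median log2 ratio of the natural killer cell marker list, with 3 genes used, was then 0.169 and 0.293, against 0.401 and 0.725. That of the natural receptor and adaptor list was also smaller in both libraries. The part of Cd8a in this was not tested. Tyrobp reached fewer of the gamma-delta cells without Trac. At 1500 UMIs per cell it had a UMI in 39.2% and 42.3% of them, against 75.4% and 66.1% of CD8 alpha only cells and 4.35% and 4.76% of CD8 alpha-beta cells. Thy1 was at 119 and 68.7 CPM in gamma-delta cells and Il7r at 64.7 and 67.9 CPM, between the levels of the other classes. Cd5 was at 9.96 and 2.51 CPM there, against 17.6 and 21.1 CPM in CD8 alpha only cells.

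CD4 T cells could be compared in library 3 alone, where 41 were found, and 1 barcode of 41048 UMIs gave 19.6% of their UMIs. Of 3114 genes 155 were at least 2-fold higher in CD8 alpha only cells (4.98%) and 136 lower (4.37%). Without barcodes above 20000 UMIs 142 of 3141 were higher (4.52%), 112 of them shared, and 129 lower (4.11%), 90 of them shared. Of the natural receptor and adaptor list 5 genes reached the minimum in both classes, and 4 were higher and 0 lower. Tyrobp was at 1399 against 9.56 CPM and Klrd1 at 1067 against 23.9 CPM. These 2 genes reached the minimum through the CD8 alpha only cells alone, a direction the minimum favours. Of the conventional list 5 genes reached the minimum in both classes, and 1 was lower and 0 higher. Cd28 was at 11.2 against 258 CPM, Icos at 2.64 against 186 CPM and Ctla4 at 7.27 against 493 CPM, genes that reached the minimum through the CD4 cells alone.

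The CD8 alpha only cells were not uniform. At least 1 UMI of Fcer1g or Tyrobp was found in 59 of 63 cells of library 1 and 288 of 318 cells of library 3, leaving 4 and 30 cells with neither. Conventional CD8 alpha-beta cells had one of the 2 in 6 of 23 and 11 of 42. Median depth was 3643 and 3088 UMIs in the cells with neither. These few cells differed from the rest in genes that neither the rule nor the split used. A UMI of Cd5, Cd6, Cd2 or Thy1 was found in 4 of 4 and 29 of 30 cells with neither adaptor, against 4 of 59 (6.78%) and 37 of 288 (12.8%) of the rest. CD8 alpha-beta cells had one in 19 of 23 (82.6%) and 32 of 42 (76.2%), and gamma-delta cells in 14 of 57 and 60 of 229.

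In library 3, the cells with neither adaptor held Lat at 478 CPM against 89.0 CPM in the rest, Cd6 at 496 against 10.7, Il7r at 110 against 6.41 and Cd5 at 266 against 2.14. Ifng, the cytokine of type 1 responses, was at 230 CPM against 13.5. The receptors ran the other way: Klrd1 was at 64.3 against 1145 CPM, Il2rb at 64.3 against 572, Ikzf2 at 138 against 780 and Klre1 at 0 against 177. Gzma was at 12050 against 19979 CPM, Ccl5 at 21832 against 18866, Cd160 at 652 against 572 and Trac at 726 against 780. These 4 genes differed by less than 2-fold. Enterocyte markers moved with the split in library 3, at 34010 CPM in the cells with neither adaptor against 15481 CPM in the rest, with 72.8% of the former in 1 cell and medians per cell of 1.07% and 0.955%. In library 1 they stood at 7134 against 22419 CPM. Gip, a hormone gene of enteroendocrine cells, was at 8872 against 72.6 CPM in library 3, with 959 of the 966 UMIs of the former in 1 cell. Their part in the other values was not tested.

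**Figure D4:**
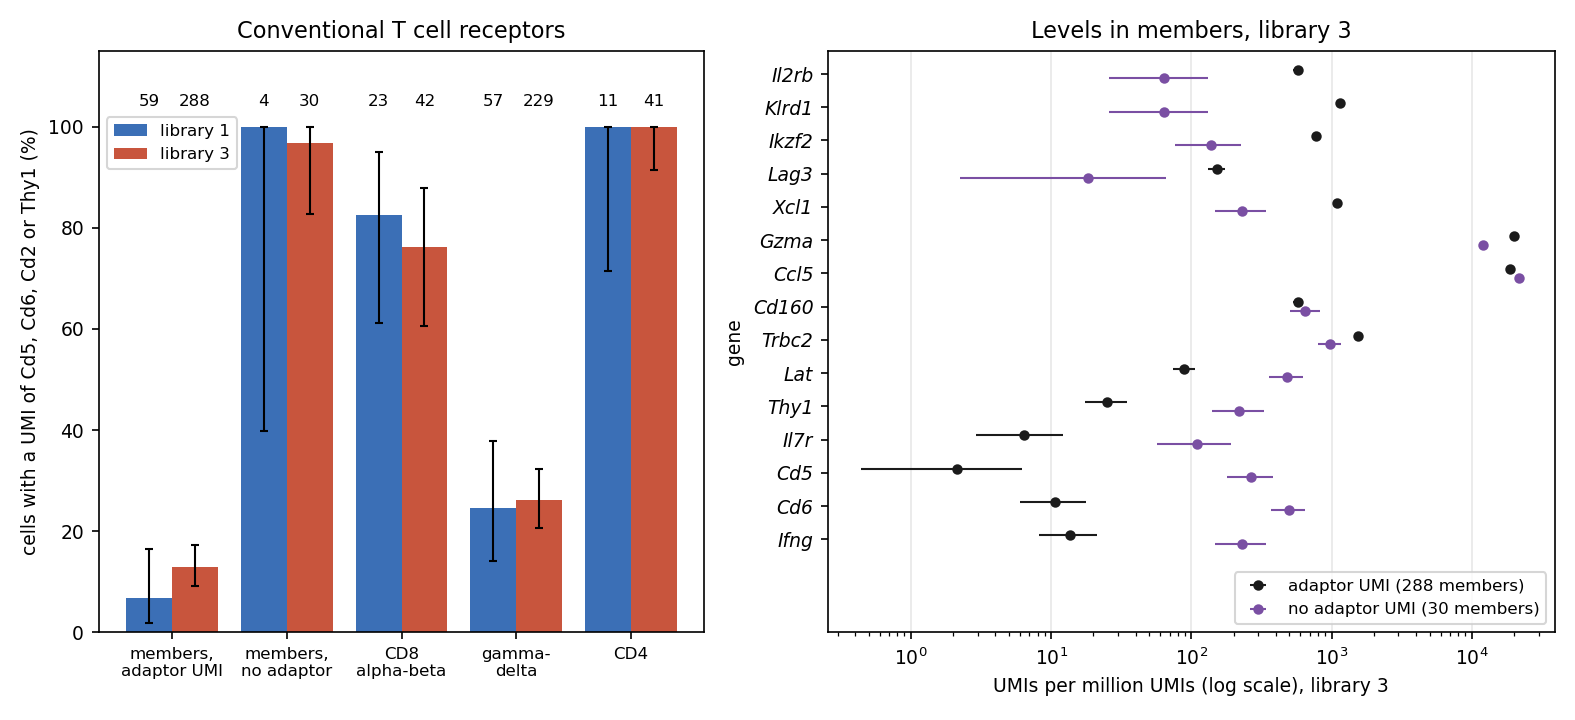
Left, share of cells with a UMI of Cd5, Cd6, Cd2 or Thy1 among CD8 alpha only cells (members) with and without a UMI of Fcer1g or Tyrobp and in the other T cell classes, with exact 95% binomial intervals and cell numbers above the bars. Right, levels in CPM (log scale) in library 3 with exact 95% Poisson intervals. Of the 30 members with neither adaptor 29 hold a conventional receptor UMI, against 37 of 288 with an adaptor.

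A second division ran through the granzymes. Gzma was either abundant or absent: 20 and 100 cells had no Gzma UMI, 1 and 13 had 1 to 9, 3 and 29 had 10 to 49, and 39 and 176 had 50 or more, with medians of 136 and 126 UMIs in cells that had any. Median depth was 4096 and 3801.5 UMIs in cells without Gzma, against 3583 and 3888 UMIs in cells with it. Of 3093 genes 31 were at least 2-fold higher with Gzma in both libraries (1%) and 13 lower (0.42%). Without barcodes above 20000 UMIs 23 of 3104 were higher (0.741%), 18 of them shared, and 16 were lower (0.515%), with all 13 shared. Except where a list or marker named them, the genes given for this division were chosen after their values were seen. Here too a gene that reaches the minimum through 1 side alone can hardly be called except as higher there. How many of the 31 and 13 did so was not counted. Prdm1, Ccl3, Tcf7, Kit and Batf3 were under 50 CPM in both libraries on their lower side, and Glp1r and Cd200r2 in library 3. The minimum favours the direction of these genes, so their levels are given below as values.

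Gzmb followed Gzma, at 4969 CPM with Gzma against 180 without in library 1 and at 3193 against 116 CPM in library 3. It had a UMI in 42 of 43 against 4 of 20 cells and in 196 of 218 against 4 of 100. Ccl5 stood at 34312 against 5545 CPM and 25432 against 5122 CPM. The chemokine Ccl4 stood at 832 against 8.99 and 933 against 152 CPM, and Ccl3 at 179 against 8.99 and 178 against 19.0. Il2rb was at 653 against 189 and 655 against 275 CPM. Prdm1, which encodes the effector regulator Blimp-1, was at 121 against 8.99 and 72.1 against 8.45 CPM, found in 59 of 218 against 2 of 100 cells of library 3. Fgl2 (584 against 108 and 428 against 90.8 CPM), Glp1r (243 against 53.9 and 180 against 31.7) and Cd200r2 (231 against 53.9 and 281 against 38.0) were higher with Gzma too. Tyrobp was at 2201 against 998 and 1762 against 602 CPM, and in library 1 it was under 2-fold higher without the deep barcode.

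Cells without Gzma held more Cd160, at 1330 against 433 CPM in library 1 and 1048 against 364 CPM in library 3, and 99 of 100 of them in library 3 had a Cd160 UMI. The 2 fixed markers that the rule left free thus had their higher levels in different cells. They did not exclude each other. A Cd160 UMI was lacking in only 16 of 63 cells of library 1 and 61 of 318 of library 3. Most cells with Gzma therefore held Cd160 as well. Xcl1, a chemokine that draws XCR1-bearing dendritic cells, was at 1303 against 572 and 1931 against 624 CPM. Tcf7, which encodes TCF-1, a factor of naive, memory and stem-like T cells, had no UMI in 43 cells with Gzma in library 1 and was at 162 CPM in the 20 without. In library 3 Tcf7 was at 8.65 CPM in 7 of 218 cells with Gzma and 211 CPM in 52 of 100 cells without. Id3, a partner of E proteins (180 against 40.4 and 201 against 65.4 CPM), Ltb, lymphotoxin beta (395 against 139 and 372 against 157), Kit, the stem cell factor receptor (135 against 28.9 and 86.6 against 34.6), and Batf3 (207 against 0 and 69.7 against 4.81) were higher without Gzma as well. The genes of the class itself moved little, with Trac at 755 against 843 and 752 against 787 CPM and Fcer1g at 1887 against 2658 and 1823 against 2148 CPM.

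The direction of Gzmb, Cd160, Xcl1 and Tcf7 was the same in the other classes. In gamma-delta cells Gzmb was at 4624 CPM with Gzma against 621 without in library 1 and 1947 against 84.0 in library 3, Cd160 at 232 against 872 and 388 against 887, Xcl1 at 248 against 1929 and 467 against 1157, and Tcf7 at 7.99 against 159 and 39.5 against 172. In CD8 alpha-beta cells Gzmb was at 3305 against 0 and 3727 against 8.98 CPM, Cd160 at 267 against 698 and 515 against 818, Xcl1 at 95.5 against 4455 and 410 against 1024, and Tcf7 at 0 against 205 and 52.9 against 225. In library 1 a single CD8 alpha-beta cell held 199 of the 217 Xcl1 UMIs in cells without Gzma. The division is therefore not particular to CD8 alpha only cells. It also crossed the division by adaptor: cells without Gzma were 18 of 59 and 92 of 288 of those with Fcer1g or Tyrobp, and 2 of 4 and 8 of 30 of those with neither.

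**Figure D5:**
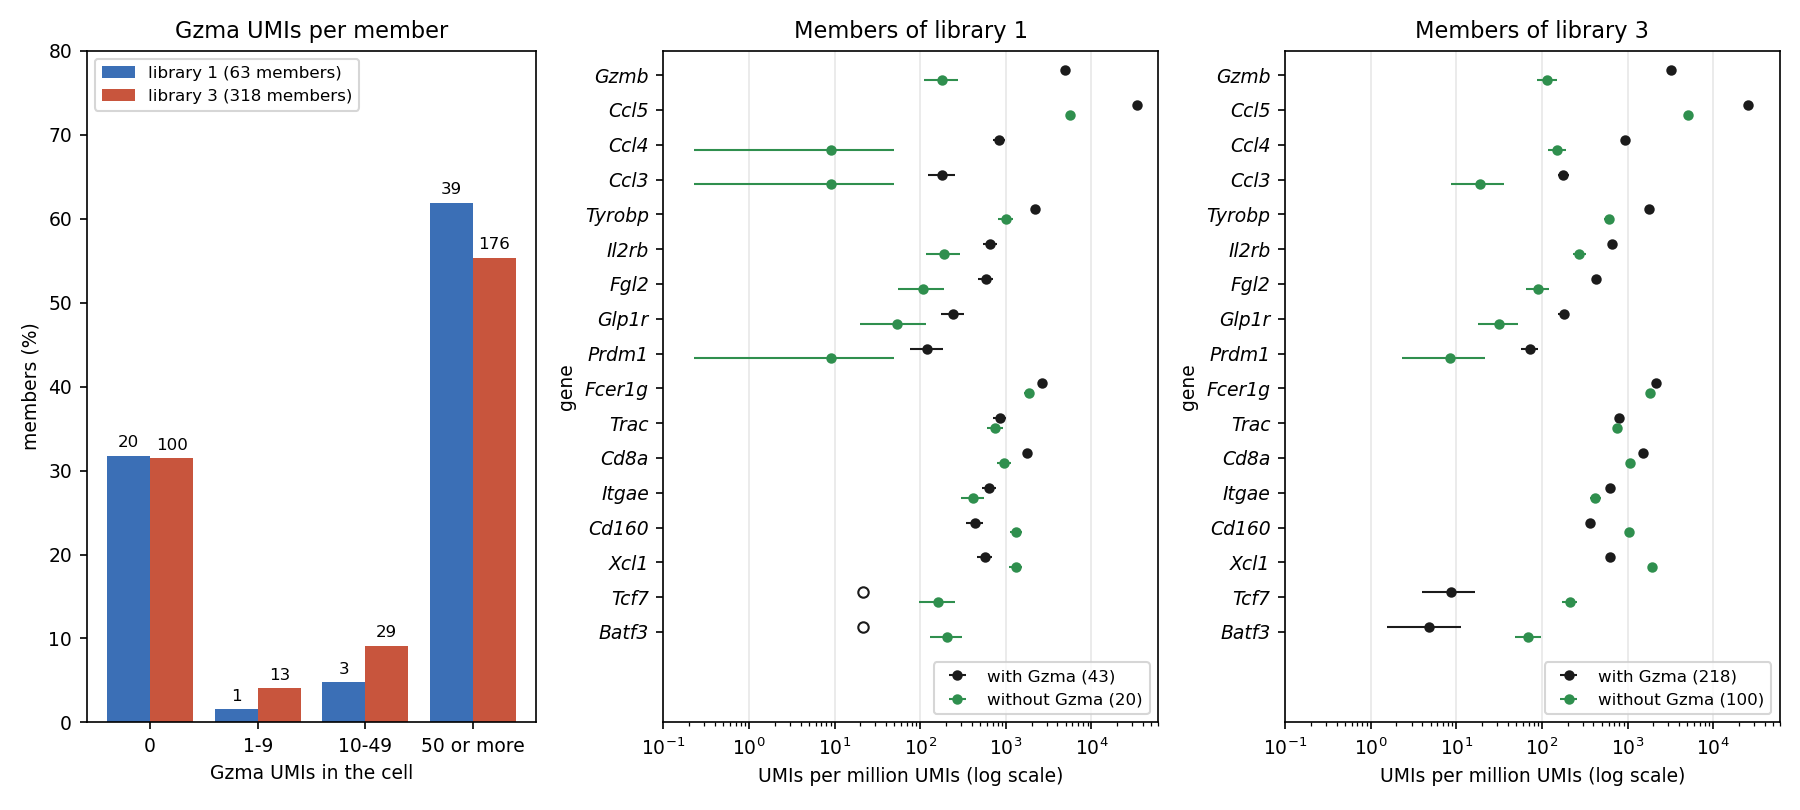
Left, share of CD8 alpha only cells (members) by their number of Gzma UMIs, with cell numbers above the bars. Middle and right, levels in CPM (log scale) in members with and without a Gzma UMI in libraries 1 and 3, with exact 95% Poisson intervals; open symbols mark the upper interval bound of a count of 0. Gzmb, Ccl5 and Prdm1 are higher with Gzma and Cd160, Xcl1 and Tcf7 higher without, while Trac stays between 752 and 843 CPM.

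The CD8 alpha only cells of libraries 1 and 3 were set side by side, although diet, mice and preparation cannot be told apart in that difference. Of 3100 genes 53 were at least 2-fold higher in library 1 (1.71%) and 33 in library 3 (1.06%). Single cells carried many of these. In 37 of the 53 and 16 of the 33, more than 50% of the UMIs lay in 1 cell, as with the goblet genes Muc2 (270 of 275 UMIs) and Zg16 (1808 of 1901) in library 1 and the Paneth gene Defa24 (15931 of 16652) and the hormone gene Gip (959 of 1068) in library 3. Without barcodes above 20000 UMIs 19 of 3107 genes were higher in library 1 (0.612%) and 21 in library 3 (0.676%), and in 13 and 2 of these 1 of the remaining cells held more than 50%. Between libraries too, a gene that reaches the minimum through 1 library alone can hardly be called except as higher there. How many of the called genes did so was not counted. With all barcodes Reg3b, an antimicrobial lectin of the epithelium with near copies in the genome, was at 1333 against 70.7 CPM and without the deep barcodes at 508 against 75.8 CPM, and enterocytes of the same libraries held 9872 against 971 CPM.

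Without the deep barcodes, most genes higher in library 3 and a minority of those higher in library 1 were not held mostly by 1 cell. Some of those higher in library 3, such as Ces2e and Chchd10, were at a higher level in enterocytes than in these cells. The genes given here were picked after their values were seen. With the deep barcodes left out, Fasl, the Fas ligand, was at 49.3 CPM in library 1 and 133 CPM in library 3, Lag3 at 68.2 and 157 CPM, Klre1 at 79.6 and 181 CPM, and Tnfaip3, an inhibitor of NF-kappa-B, at 68.2 and 158 CPM. The immediate early genes Dusp1 (45.5 and 130 CPM) and Ier2 (75.8 and 197 CPM) were higher in library 3 as well. Higher in library 1 were Gzmk, another granzyme, at 114 and 17.5 CPM, and the Ly49 genes Klra7 at 190 and 35.0 CPM and Klra3 at 125 and 41.5 CPM. Fasl and Dusp1 were under 50 CPM in library 1, and Gzmk, Klra7 and Klra3 in library 3, so the minimum favours their direction. In library 1 Gzmk, Klra7 and Klra3 had a UMI in only 11, 12 and 12 cells, and Klre1 in 9. The counting intervals of these 9 ratios excluded 1, which says nothing of the spread between samples, since each library is 1 sample. Gzma, Cd160, Fcer1g and Tyrobp were not among the genes past 2-fold between the libraries.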

How the data were processed

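The authors deposited raw UMI counts, as whole numbers in a sparse matrix, per the file headers. Libraries were made with 10x 3′ chemistry, per the labels' protocols. Cell Ranger 6.1.1 and mm10 stand in the submitters' processing notes, and the annotation is not given in the sources used here. The matrix has 32285 genes and 44277 barcodes, and libraries were told apart by barcode number only.

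The CD8 alpha only cells and the gene lists were chosen with earlier results of these data known. UMIs were summed per library and class and divided by the class total (CPM). A gene was called where the log2 ratio, with 10 CPM added, passed 2-fold in every library used. It needed a mean of at least 50 CPM, and genes of the rule and mitochondrial genes were left out. Libraries with fewer than 20 cells in a class were not compared. Intervals are exact 95% Poisson or Clopper-Pearson intervals, and a count of 0 allows 3 counts.

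Named genes were the markers, the largest ratios in each direction and list genes above the minimum. Of 395 list genes, 394 were found by symbol. Doublets were treated by an alternative that leaves out the 6% of barcodes with the highest Scrublet score in each library. Coordinates come from the GENCODE annotation of GRCm38. The summing and ratio steps were tested on simulated data. Python 3.11.15, numpy 2.4.6, scipy 1.17.1 and pandas 2.3.3 were used.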

Additional observations from a re-analysis of the deposited data

How the results depend on the processing

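Alternatives were run 1 at a time. The count higher against CD8 alpha-beta cells, 46, became 79 with Fabp1 under 0.5%, 114 at a minimum of 20 CPM, 11 at 200 CPM and 73 in cells thinned to 1500 UMIs. The count lower, 25, became 44 at 20 CPM, 3 at 200 CPM, 42 with mitochondrial and ribosomal protein genes left out of the total and 45 after thinning. Against gamma-delta cells the 3 higher genes became 6 with 1 CPM added, 5 at 20 CPM, 1 at 200 CPM, 1 after thinning and 0 with gamma-delta cells taken whatever their Trac count. The 4 lower became 2 without barcodes above 20000 UMIs, 2 where the interval had to exclude 1 and 7 after thinning. The share of T cells became 15.1% and 19.7% with at least 2 UMIs of Trac and of Cd8a, and 20.5% in library 3 when cells were thinned before the rule. The share without Cd8b1 became 83.8% and 94% with Trdc cells counted. The 53 and 33 genes between libraries became 19 and 21 without the deep barcodes. The cause of these changes was not tested. Of the values of these results under alternatives, 93 stayed the same and 23, those given above, moved, and of the CPM of named genes 190 stayed and 70 moved. The removal of deep barcodes, the wider gamma-delta class, the adaptor split at 1500 UMIs, the counting of Trdc cells and a beta-chain limit were chosen after seeing the data. No paired analysis was possible because no library could be tied to a sample. With 2 libraries of 63 and 318 cells and no diet labels, depth and cell number limit all ratios.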

Other observations

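Levels of some further genes of the CD8 alpha only cells, chosen after their values were seen, were as follows. Perforin, the pore-forming partner of the granzymes, was scarce beside them: Prf1 was at 31.6 and 34.4 CPM, with a UMI in 7 of 63 and 48 of 318 cells, while Gzmb was at 3095 and 2231 CPM. Bcl2, a survival factor, was at 833 and 845 CPM and had a UMI in 61 of 63 and 280 of 318 cells, against 564 and 503 CPM in CD8 alpha-beta cells. Mki67, a marker of dividing cells, had a UMI in 2 of 63 and 17 of 318 cells. Tox was at 134 and 151 CPM and Pdcd1, the receptor PD-1, had a UMI in 0 of 63 and 2 of 318 cells. Cd7, a surface protein of T and natural killer cells, was at 3615 and 3409 CPM against 1197 and 2070 CPM in CD8 alpha-beta cells.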
